A study of Mus musculus with 9 samples.

Results

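The epidermal growth factor (EGF) family was followed here as 9 genes: the receptor genes Egfr, Erbb2 and Erbb3 and the ligand genes Areg, Ereg, Hbegf, Btc, Tgfa and Nrg1. A gene was taken where the array's probe annotation gave its symbol alone, and 8 of the 9 were measured, 3 receptors and 5 ligands, among 19938 genes tested. Each of the 8 had a single probe set; Areg was not analysed here. The cells were immortalized mouse embryonic fibroblasts (MEFs) of ICR background, kept in medium with 10% serum at 37 degrees. All cells were infected with a short hairpin RNA (shRNA) adenovirus for 2 h and harvested after another 70 h, so virus and hairpin expression were common to all groups. HSF1 shRNA, RPA1 shRNA and control (scrambled) shRNA had 3 Affymetrix Mouse Gene 1.0 ST arrays each. The study asked whether a complex of the heat shock factor HSF1 and RPA, the single-stranded DNA binding complex, controls gene expression; HSF1 drives chaperone genes under heat and other protein stress. The labels do not say whether arrays of a group came from separate cultures, so the p-values measure the spread between these arrays, which may be technical.

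EGF-family ligands are made as membrane-anchored precursors that metalloproteases cut at the cell surface, and the released domain makes ErbB receptors pair and phosphorylate each other. Epiregulin, heparin-binding EGF-like growth factor (HB-EGF), betacellulin and transforming growth factor alpha (TGF-alpha) bind the EGF receptor, and neuregulin binds ErbB3 and ErbB4. ErbB2 has no known ligand of its own and serves as a partner, and the ERK kinase cascade below the receptors switches on ligand genes as well as feedback inhibitors. In fibroblasts the EGF receptor is known as a receptor for proliferation and migration signals.

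Values are log2 signals, and differences are log2 differences with the standard error of limma. A gene was called at a Benjamini-Hochberg adjusted p under 0.05 over all genes of a comparison. Rpa1 read 9.42, 9.34 and 9.40 with RPA1 shRNA and 11.35, 11.33 and 11.30 with HSF1 shRNA, against 11.40, 11.42 and 11.41 in the control; Hsf1 was not analysed here. How far a signal stood above background is not known, and a dim gene's fold may be too small. RPA1 shRNA array 3 stood apart: over the 8 family genes its median absolute gap from the mean of the other 2 arrays was 0.27, against 0.14 and 0.15 for RPA1 shRNA arrays 1 and 2 and 0.02 to 0.09 for the 6 arrays of the other groups. Over all genes the same gap was 0.11, against 0.073 and 0.087.

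Promoter windows are shown for the receptors Egfr and Erbb2, which both fell under RPA1 shRNA, and for the ligands Tgfa and Btc, which were both called in the direct comparison of the knockdowns. These 4 of the 8 measured genes are those matched by entries in the RefSeq promoter table (build GRCm38.p6). The 250 bases upstream of the annotated start lie at chr11:16751953-16752202, plus strand (Egfr), chr11:98412234-98412483, plus strand (Erbb2), chr6:86194972-86195221, plus strand (Tgfa) and chr5:91402995-91403244, minus strand (Btc). They are written 5′ to 3′ on the gene's strand, with capitals marking GC boxes (GGGCGG on either strand).
Egfr: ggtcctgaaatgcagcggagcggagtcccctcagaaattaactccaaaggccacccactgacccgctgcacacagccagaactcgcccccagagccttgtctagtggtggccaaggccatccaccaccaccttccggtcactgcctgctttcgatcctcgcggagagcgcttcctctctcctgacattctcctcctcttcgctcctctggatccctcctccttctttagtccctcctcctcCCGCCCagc
Erbb2: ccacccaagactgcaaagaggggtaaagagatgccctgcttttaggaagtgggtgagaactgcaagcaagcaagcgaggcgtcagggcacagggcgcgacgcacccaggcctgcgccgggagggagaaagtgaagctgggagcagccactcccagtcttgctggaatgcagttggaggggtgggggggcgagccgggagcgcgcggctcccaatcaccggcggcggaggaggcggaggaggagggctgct
Tgfa: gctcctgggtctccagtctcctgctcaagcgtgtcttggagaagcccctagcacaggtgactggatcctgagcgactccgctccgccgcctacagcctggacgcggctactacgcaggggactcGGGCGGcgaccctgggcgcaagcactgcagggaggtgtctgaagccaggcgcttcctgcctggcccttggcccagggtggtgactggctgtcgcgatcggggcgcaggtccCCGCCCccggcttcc
Btc: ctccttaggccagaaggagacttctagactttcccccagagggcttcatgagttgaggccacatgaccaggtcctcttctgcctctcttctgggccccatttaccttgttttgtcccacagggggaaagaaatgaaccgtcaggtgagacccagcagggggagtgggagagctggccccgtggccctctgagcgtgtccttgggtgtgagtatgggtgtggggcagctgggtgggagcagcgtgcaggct

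The windows held 60.8% (Egfr), 66% (Erbb2), 69.2% (Tgfa) and 59.6% (Btc) G and C bases, against a median of 52.4% over the 32851 promoter windows of this length. Tgfa had 2 GC boxes and Egfr 1, while Erbb2 and Btc had none in these letters; 32.7% of all windows hold the motif. The 4 windows held no pair of heat shock element units (GAANNTTC or TTCNNGAA, present in 12.8% of all windows), no AP-1 motif (TGANTCA, 6.75%) and no TATAAA (12.4%), each searched on both strands. No match says only that these letters are not in these bases.

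Under HSF1 shRNA the EGF receptor ligand genes Ereg, Hbegf, Tgfa and Btc rose and the EGF receptor transcript fell. Of the 8 family genes, 4 were called higher and 1 lower, where 9.89% of all genes were called higher, 6.21% lower and 16.1% in either direction. The median difference of the 8 was 0.20, against 0.04 over all genes. Under RPA1 shRNA 3 were called higher (Ereg, Hbegf and Nrg1) and 2 lower (Egfr and Erbb2), where 15.4% of all genes were called higher, 14.7% lower and 30.1% in either direction. The median of the 8 was 0.17, against 0.02 over all genes. Arrays did not overlap with the control for 6 of the 8 under HSF1 shRNA, against 37.9% of all genes, and for 5 of the 8 under RPA1 shRNA, against 41% of all genes. The comparisons with the control share its 3 arrays and are given side by side. Among all genes called under HSF1 shRNA the split was 1971 higher to 1239 lower, 1789 to 1649 with quantile scaling, 1593 to 1717 with median scaling and 1232 to 1223 without HSF1 shRNA array 1. The HSF1 shRNA count for the family was 3 when array 3 of the control or of HSF1 shRNA was left out.

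**Figure D1:**
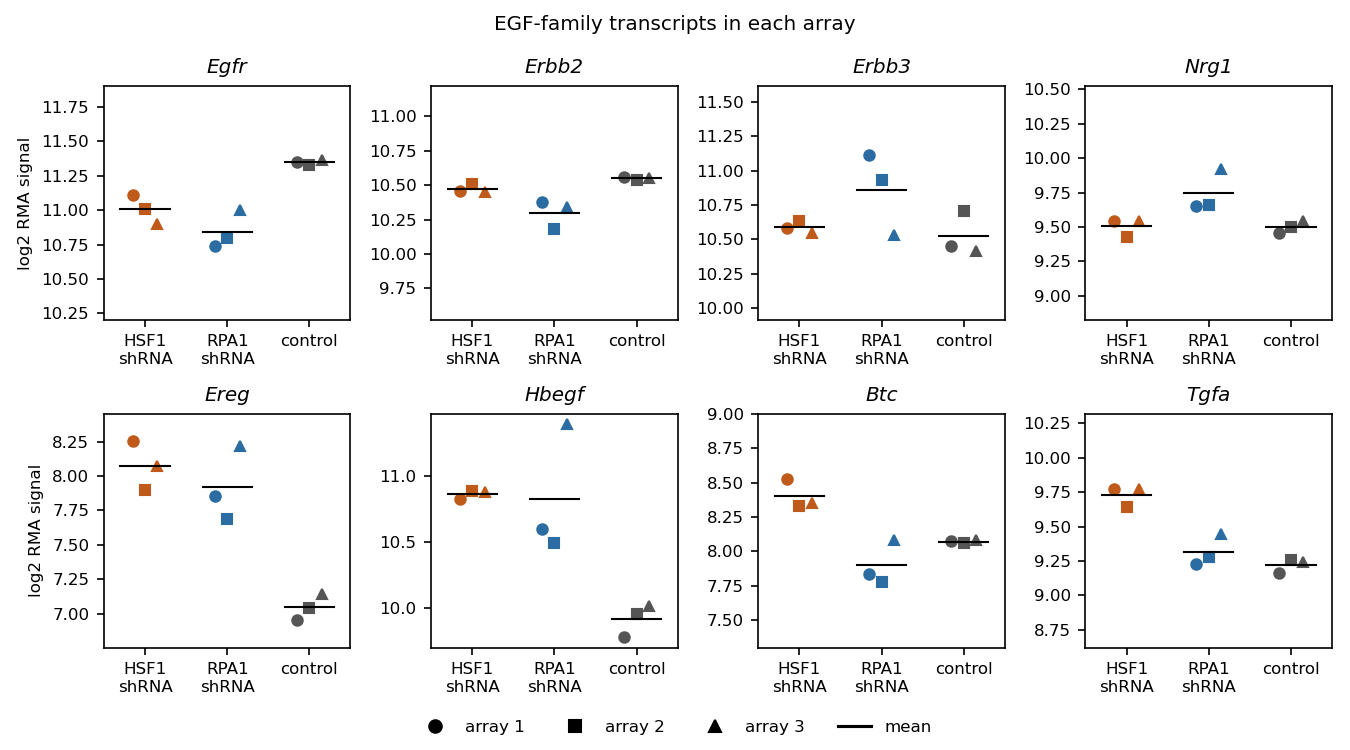
Log2 signal of the 8 measured EGF-family genes in every array, by group (HSF1 shRNA, RPA1 shRNA, control); symbols mark the array number, bars the group mean. Ereg and Hbegf lie above the control in all 6 knockdown arrays, Egfr lies below it in all 6, and Hbegf in RPA1 shRNA array 3 (11.39) lies apart from arrays 1 and 2.

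Epiregulin, a ligand of the EGF receptor and ErbB4, had the largest difference of the family under HSF1 shRNA. Ereg (probe set 10523175) read 8.26, 7.90 and 8.07 with HSF1 shRNA and 7.86, 7.69 and 8.22 with RPA1 shRNA, against 6.95, 7.04 and 7.14 in the control. The knockdown arrays all lay above the control arrays, and those of the knockdowns overlapped each other. Ereg rose 2.04-fold under HSF1 shRNA (1.03 ± 0.13, limma adjusted p = 0.00113) and 1.84-fold under RPA1 shRNA (0.88 ± 0.13, limma adjusted p = 0.000927). Of all genes 0.196% stood at least as high under HSF1 shRNA, and 1.31% under RPA1 shRNA. Between the knockdowns Ereg differed by 0.15 (95% interval -0.15 to 0.45, limma adjusted p = 0.478).

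HB-EGF is a heparin-binding ligand of the EGF receptor and ErbB4. Hbegf (probe set 10458340) read 10.83, 10.89 and 10.88 with HSF1 shRNA and 10.60, 10.49 and 11.39 with RPA1 shRNA, against 9.79, 9.96 and 10.02 in the control. The groups did not overlap with the control, and RPA1 shRNA array 3 was the highest of the 9. Hbegf rose 1.92-fold under HSF1 shRNA (0.94 ± 0.19, limma adjusted p = 0.0102, and 0.058 with the unmoderated test) and 1.87-fold under RPA1 shRNA (0.91 ± 0.19, limma adjusted p = 0.00599). Without RPA1 shRNA array 3 the RPA1 shRNA difference was 0.63 ± 0.07 (limma adjusted p = 0.00017). The difference between the knockdowns was 0.04 (95% interval -0.40 to 0.47, limma adjusted p = 0.923) with all arrays. Without RPA1 shRNA array 3 it was 0.32 ± 0.07 and passed (limma adjusted p = 0.0088), higher under HSF1 shRNA.

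TGF-alpha, a ligand of the EGF receptor alone, rose under HSF1 shRNA. Tgfa (probe set 10539692) read 9.78, 9.64 and 9.77 with HSF1 shRNA and 9.23, 9.28 and 9.44 with RPA1 shRNA, against 9.16, 9.25 and 9.24 in the control. The HSF1 shRNA arrays lay above the other 6, and the RPA1 shRNA and control arrays overlapped. The HSF1 shRNA rise was 1.42-fold (0.51 ± 0.07, limma adjusted p = 0.00127), while the RPA1 shRNA difference was 0.10 (95% interval -0.05 to 0.25, limma adjusted p = 0.334). Tgfa was higher under HSF1 shRNA than under RPA1 shRNA by 0.41 ± 0.07 (limma adjusted p = 0.00238), a call kept in all 18 alternatives tried.

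Betacellulin binds the EGF receptor and ErbB4. Btc (probe set 10531274) read 8.53, 8.33 and 8.36 with HSF1 shRNA and 7.84, 7.78 and 8.08 with RPA1 shRNA, against 8.08, 8.06 and 8.08 in the control. The HSF1 shRNA arrays were the highest, and RPA1 shRNA arrays 1 and 2 lay below the control arrays. Btc rose 1.26-fold under HSF1 shRNA (0.33 ± 0.08, limma adjusted p = 0.0237), a call lost when any 1 control array, or array 1 or 3 of HSF1 shRNA, was left out (0.27 to 0.36). Under RPA1 shRNA the difference was -0.17 (95% interval -0.36 to 0.01, limma adjusted p = 0.153), and -0.27 ± 0.06 without RPA1 shRNA array 3, a fall that passed (limma adjusted p = 0.0098). The direct difference was 0.51 ± 0.08, higher under HSF1 shRNA than under RPA1 shRNA (limma adjusted p = 0.00238).

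Neuregulin 1 is the ligand of ErbB3 and ErbB4 in the list and acts on glial and heart cells in particular. Nrg1 (probe set 10578045) read 9.55, 9.43 and 9.55 with HSF1 shRNA and 9.65, 9.66 and 9.92 with RPA1 shRNA, against 9.46, 9.50 and 9.55 in the control. The RPA1 shRNA arrays lay above the other 6, and the HSF1 shRNA and control arrays overlapped. The RPA1 shRNA rise was 1.18-fold (0.24 ± 0.08, limma adjusted p = 0.0391). It missed the threshold when any 1 control array, array 1 or 3 of HSF1 shRNA, or array 3 of RPA1 shRNA was left out (0.15 to 0.27). Under HSF1 shRNA the difference was 0.01 (95% interval -0.17 to 0.18, limma adjusted p = 0.978). The direct difference, HSF1 shRNA minus RPA1 shRNA, was -0.24 ± 0.08 (limma adjusted p = 0.0504), and it passed with quantile scaling (-0.29, adjusted p = 0.022) and with median scaling (-0.28, adjusted p = 0.027).

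The EGF receptor transcript was lower in every knockdown array. Egfr (probe set 10374366) read 11.11, 11.01 and 10.90 with HSF1 shRNA and 10.74, 10.79 and 11.00 with RPA1 shRNA, against 11.35, 11.33 and 11.37 in the control. The control arrays differed among themselves by less than any knockdown array differed from them. Egfr fell 1.42-fold under RPA1 shRNA (-0.50 ± 0.08, limma adjusted p = 0.000884) and 1.27-fold under HSF1 shRNA (-0.34 ± 0.08, limma adjusted p = 0.0141). The HSF1 shRNA call was lost on leaving out control array 3 (-0.33, adjusted p = 0.055) or array 3 of HSF1 shRNA (-0.29, adjusted p = 0.058). HSF1 shRNA minus RPA1 shRNA was 0.16 (95% interval -0.01 to 0.33, limma adjusted p = 0.164), and 0.24 without RPA1 shRNA array 3 (adjusted p = 0.017).

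ErbB2, the partner receptor without a known ligand, fell under RPA1 shRNA. Erbb2 (probe set 10380896) read 10.46, 10.51 and 10.45 with HSF1 shRNA and 10.38, 10.18 and 10.34 with RPA1 shRNA, against 10.56, 10.54 and 10.56 in the control. The groups did not overlap, with the control highest and RPA1 shRNA lowest. The fall under RPA1 shRNA was 1.19-fold (-0.25 ± 0.06, limma adjusted p = 0.00827), and the HSF1 shRNA difference was -0.08 (95% interval -0.21 to 0.05, limma adjusted p = 0.412). The direct difference of 0.17 ± 0.06 missed the threshold (limma adjusted p = 0.0554) and passed without RPA1 shRNA array 1 (0.21, adjusted p = 0.047) or array 3 (0.19, adjusted p = 0.04).

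ErbB3 signals through partners because its own kinase is weak, and it is known as a neuregulin receptor of glial and epithelial cells. Erbb3 (probe set 10373467) read 10.58, 10.63 and 10.55 with HSF1 shRNA and 11.11, 10.93 and 10.53 with RPA1 shRNA, against 10.45, 10.71 and 10.42 in the control. RPA1 shRNA arrays 1 and 2 were the highest, and array 3 lay among the control arrays. The RPA1 shRNA difference was 0.33 (95% interval 0.03 to 0.63, limma adjusted p = 0.0932), and without array 3 it was 0.49 ± 0.09 and passed (adjusted p = 0.0025). The HSF1 shRNA difference was 0.06 (95% interval -0.24 to 0.36, limma adjusted p = 0.814). HSF1 shRNA minus RPA1 shRNA was -0.27 (95% interval -0.57 to 0.03, limma adjusted p = 0.184) and -0.43 without RPA1 shRNA array 3 (adjusted p = 0.0058). Of 3 measured glial markers, Sox10, a transcription factor of glial cells, rose under RPA1 shRNA (0.41 ± 0.11, limma adjusted p = 0.0185, lost without control array 1 or 3), while S100b stood at -0.01 ± 0.07 and Gfap at 0.08 ± 0.06. Their part in the Erbb3 values was not tested.

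**Figure D2:**
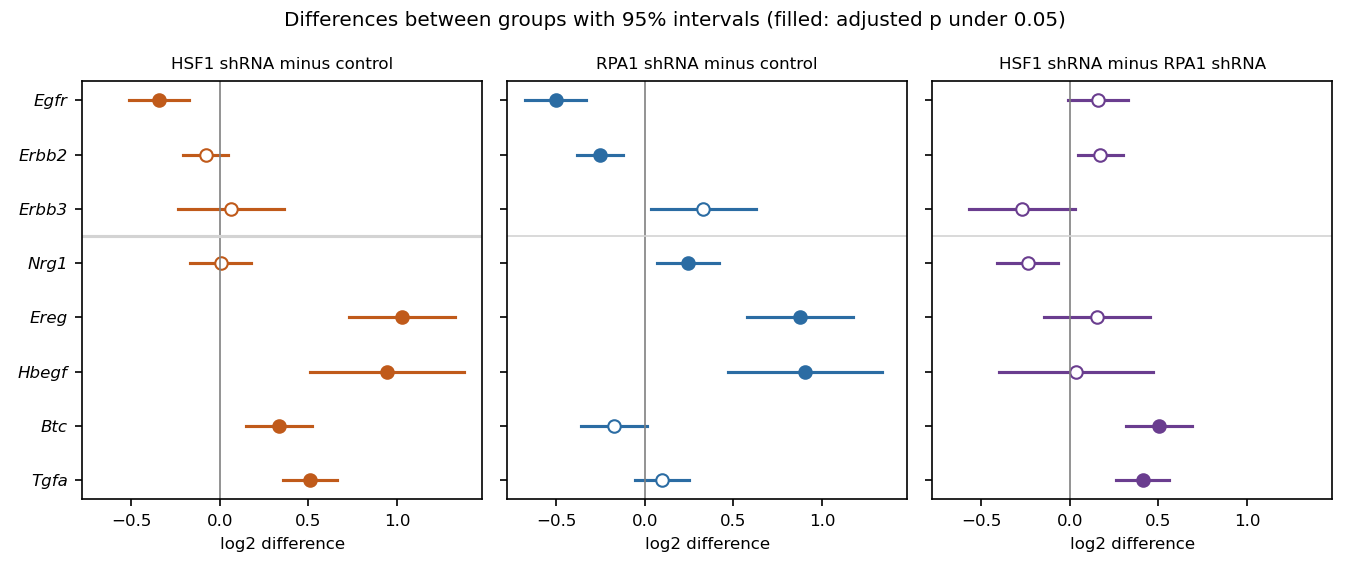
Log2 differences of the 8 genes in 3 comparisons (HSF1 shRNA minus control, RPA1 shRNA minus control, HSF1 shRNA minus RPA1 shRNA), receptors above the grey line and ligands below it; bars are 95% intervals from limma and filled points passed an adjusted p under 0.05. Ereg and Hbegf lie between 0.88 and 1.03 in both knockdowns, and Btc and Tgfa are the filled points of the direct comparison.

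In the direct comparison of the knockdowns 2 of the 8 family genes passed, Btc and Tgfa, both higher under HSF1 shRNA than under RPA1 shRNA. Over all genes 24.4% passed, 14.7% higher and 9.71% lower, so the family's count is near the share of all genes. The arrays of the knockdowns did not overlap for 4 of the 8 (Erbb2, Btc, Tgfa and Nrg1), against 34.5% of all genes. The median of the 8 was 0.16, against 0.02 over all genes. Without RPA1 shRNA array 3 the count was 6, with Hbegf and the 3 receptors Egfr, Erbb2 and Erbb3 added.

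The other genes of the family are to be read beside the shares of all genes called, 16.1% under HSF1 shRNA and 30.1% under RPA1 shRNA. The group means of Epgn, Erbb4, Nrg3 and Nrg4, 5.94 to 6.54, lay below the array medians of 7.72 to 7.81. Of 6 such genes (Egf, Epgn, Erbb4, Nrg2, Nrg3 and Nrg4), limma called 0 under HSF1 shRNA and 1 had an unadjusted p under 0.05; the unmoderated test called 1, as did limma without RPA1 shRNA array 3. Under RPA1 shRNA only Nrg2, a neuregulin, was called (0.25 ± 0.06, limma adjusted p = 0.0112). It was also lower under HSF1 shRNA than under RPA1 shRNA (-0.27 ± 0.06, limma adjusted p = 0.0113).

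Genes of ligand release moved both ways. Of 13 proteases and their partners, 3 rose and 2 fell under HSF1 shRNA, and 5 rose and 3 fell under RPA1 shRNA, with medians of 0.08 and 0.10; over all genes 16.1% and 30.1% were called. Under RPA1 shRNA Adam10, a sheddase of EGF and betacellulin, fell (-0.48 ± 0.05, limma adjusted p = 0.00013), and Furin, which activates ADAM proteases, rose (0.46 ± 0.06, 0.000446). Timp3, an inhibitor of ADAM17, fell under RPA1 shRNA (-0.49 ± 0.13, limma adjusted p = 0.021), a call lost in 7 of 18 alternatives, among them without any 1 control array and without RPA1 shRNA array 1 or 2 (-0.36 to -0.51). Under HSF1 shRNA the rises numbered 1 when control array 1 or 2, or any 1 array of HSF1 shRNA, was left out, and 1 with median scaling. The falls numbered 0 on leaving out control array 2 or array 3 of HSF1 shRNA, and 1 on leaving out control array 3 or array 2 of HSF1 shRNA. Under RPA1 shRNA the rises numbered 3 without control array 3, and the falls 1 without any 1 control array or RPA1 shRNA array 1.

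Adam17 and Rhbdf2, singled out after their values were seen, went opposite ways in the knockdowns. ADAM17 is the main sheddase of TGF-alpha, epiregulin and HB-EGF, and Rhbdf2 encodes iRhom2, which carries ADAM17 to the cell surface. Adam17 averaged 11.36 ± 0.02 under HSF1 shRNA and 10.98 ± 0.10 under RPA1 shRNA, against 11.16 ± 0.01 in the control (SD, n = 3 each). Its direct difference was 0.37 ± 0.05 (limma adjusted p = 0.00131), kept in all alternatives; its calls against the control (0.19 and -0.18, adjusted p = 0.0389 and 0.0313) were lost in 10 and 7 of 18. Rhbdf2 averaged 9.83 ± 0.06 under HSF1 shRNA and 10.50 ± 0.13 under RPA1 shRNA, against 10.12 ± 0.04 in the control (SD, n = 3 each). Its direct difference was -0.67 ± 0.07 (limma adjusted p = 0.000276), kept in all alternatives. Rhbdf2 rose by 0.39 ± 0.07 under RPA1 shRNA (limma adjusted p = 0.00218) and fell under HSF1 shRNA (-0.28 ± 0.07, adjusted p = 0.0209), the fall being lost when array 2 or 3 of the control or of HSF1 shRNA was left out.

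Inhibitors and turnover genes of the receptors also split. Of 17, 7 rose and 4 fell under HSF1 shRNA, and 4 rose and 3 fell under RPA1 shRNA, with medians of 0.08 and 0.05; over all genes 16.1% and 30.1% were called. Lrig1, a membrane protein that promotes receptor degradation, read 11.16, 11.07 and 11.10 with HSF1 shRNA and 10.69, 10.56 and 11.00 with RPA1 shRNA, against 10.28, 10.39 and 10.30 in the control. It rose in both (0.79 ± 0.10, limma adjusted p = 0.000895, and 0.43 ± 0.10, 0.00827). Its relative Lrig3 fell in both (-0.67 ± 0.11, limma adjusted p = 0.00364, and -0.79 ± 0.11, 0.000543). Cblb, a ubiquitin ligase of activated receptors, fell under RPA1 shRNA (-0.49 ± 0.06, limma adjusted p = 0.000196) and under HSF1 shRNA (-0.31 ± 0.06, 0.00623). Errfi1, a feedback inhibitor of the receptor kinase named after its values were seen, rose in both (0.35 ± 0.07, 0.00715, and 0.48 ± 0.07, 0.000515).

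Among the transducers below the receptors, 21 listed genes were measured. Under HSF1 shRNA 3 rose and 4 fell (median -0.04), with 1 rise when control array 1 or 3, or array 3 of HSF1 shRNA, was left out. Under RPA1 shRNA 4 rose and 9 fell (median -0.15). Over all genes 9.89% rose and 6.21% fell under HSF1 shRNA, and 15.4% rose and 14.7% fell under RPA1 shRNA. Gab1, a docking protein of the EGF receptor, fell in both (-0.56 ± 0.09, limma adjusted p = 0.00308, and -0.52 ± 0.09, 0.00165), and its relative Gab2 rose under RPA1 shRNA (0.50 ± 0.06, 0.000183). Sos2, a Ras exchange factor, fell under RPA1 shRNA (-0.57 ± 0.18, limma adjusted p = 0.0375). It read 9.44, 9.44 and 10.23 in the RPA1 shRNA arrays, against 10.23, 10.31 and 10.28 in the control arrays. Array 3 lay at the control level, and the call was lost in 10 of 18 alternatives, among them without RPA1 shRNA array 1 or 2 (-0.44). Without RPA1 shRNA array 3 the difference was -0.83 and the call was kept.

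As a list, the genes that ERK induces, feedback inhibitors included, rose more often than they fell. Of 20, 10 rose and 1 fell under HSF1 shRNA (median 0.31), and 12 rose and 2 fell under RPA1 shRNA (median 0.50), beside the shares of all genes given above. Fosl1, an AP-1 subunit, read 10.80, 10.80 and 10.93 with HSF1 shRNA and 11.48, 11.46 and 11.58 with RPA1 shRNA, against 9.61, 9.63 and 9.67 in the control. The groups did not overlap, and the differences from the control were 1.21 ± 0.06 (limma adjusted p = 1.56e-05) and 1.87 ± 0.06 (3.79e-07). Maff, a small basic leucine zipper factor, rose by 0.84 ± 0.06 and 1.22 ± 0.06, and Etv4, an ETS factor, by 0.88 ± 0.10 in both. Dusp6, the ERK phosphatase, named after its values were seen, rose by 0.72 ± 0.09 and 0.67 ± 0.09 (limma adjusted p = 0.000894 and 0.000453). The fall under HSF1 shRNA was Egr1 (-0.36 ± 0.11, limma adjusted p = 0.0456), lost when any 1 array of the control or of HSF1 shRNA, or array 1 of RPA1 shRNA, was left out. Without RPA1 shRNA array 3 the falls under HSF1 shRNA numbered 2. The falls under RPA1 shRNA were the feedback inhibitors Spry1 (-0.67 ± 0.13, limma adjusted p = 0.00332) and Spred1 (-0.31 ± 0.06, limma adjusted p = 0.00508).

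**Figure D3:**
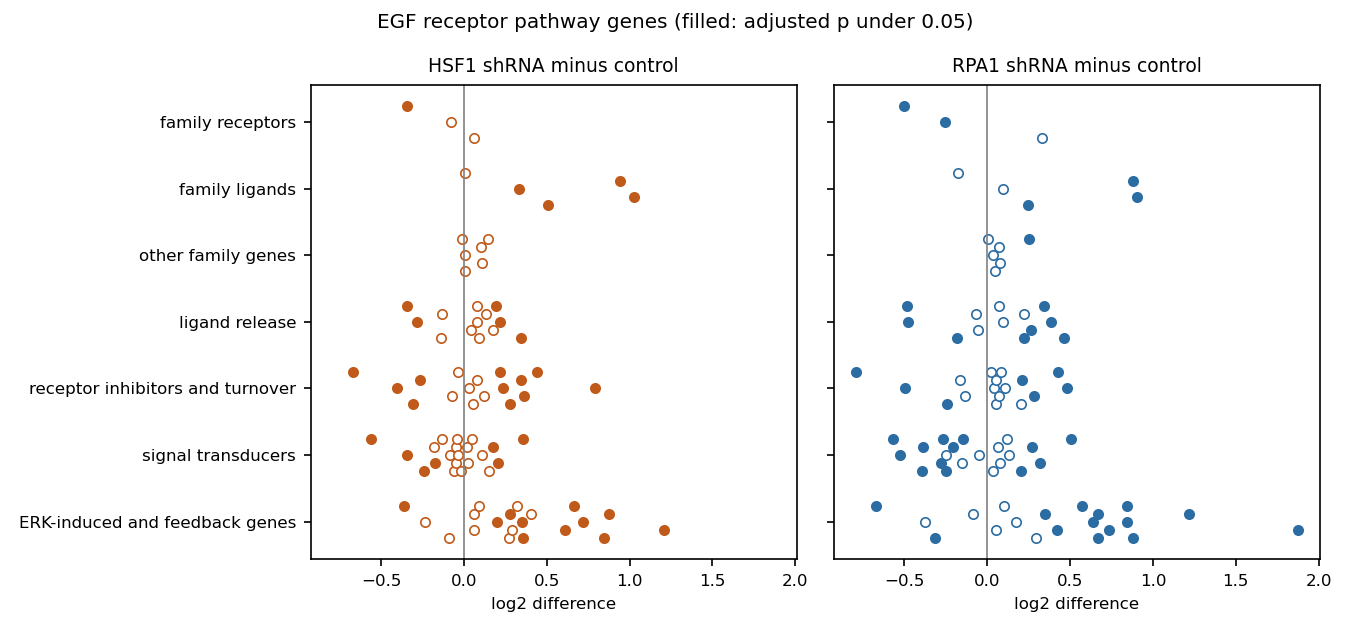
Log2 differences of each measured gene of the EGF receptor pathway lists, HSF1 shRNA minus control on the left and RPA1 shRNA minus control on the right; filled points passed an adjusted p under 0.05 and the vertical spread within a list has no meaning. Family ligands and ERK-induced genes lie mostly right of 0. The other family genes lie between -0.01 and 0.25, and the remaining lists spread on both sides.

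Ereg and Btc are neighbours on mouse chromosome 5, in the order Epgn, Ereg, Areg and Btc among protein-coding genes of the RefSeq table, with chemokine genes before Epgn. The stretch was chosen after the data were seen. Between Ereg and the chemokine genes, Epgn and Mthfd2l did not pass in either knockdown (0.11 ± 0.07 and 0.20 ± 0.06 under HSF1 shRNA, 0.07 ± 0.07 and 0.12 ± 0.06 under RPA1 shRNA). Parm1, on the other side of Btc, did not pass (0.12 ± 0.19 and 0.15 ± 0.19). Among the chemokine genes Cxcl1 rose under HSF1 shRNA (0.59 ± 0.07, limma adjusted p = 0.00102) and Cxcl2 under RPA1 shRNA (0.95 ± 0.16, 0.00197). Ppbp also rose under RPA1 shRNA (0.39 ± 0.06, limma adjusted p = 0.00106). Cxcl15 fell under RPA1 shRNA (-1.37 ± 0.13, limma adjusted p = 6.68e-05). The group means of Ppbp (7.02 to 7.53), Cxcl2 (6.71 to 7.65) and Cxcl15 (5.71 to 7.08) lay below the array medians of 7.72 to 7.81. Cxcl2 stood at 0.45 ± 0.16 under HSF1 shRNA (limma adjusted p = 0.101). This difference passed in 5 alternatives, among them without RPA1 shRNA array 3 (limma adjusted p = 0.0053). The Cxcl2 difference between the knockdowns, HSF1 shRNA minus RPA1 shRNA, missed the threshold (-0.50 ± 0.16, limma adjusted p = 0.0544). It too passed in 5 alternatives, among them without RPA1 shRNA array 3 (-0.71, limma adjusted p = 0.00044). Pf4 and Cxcl3 did not pass in either knockdown. Over all genes 16.1% were called under HSF1 shRNA and 30.1% under RPA1 shRNA.

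**Figure D4:**
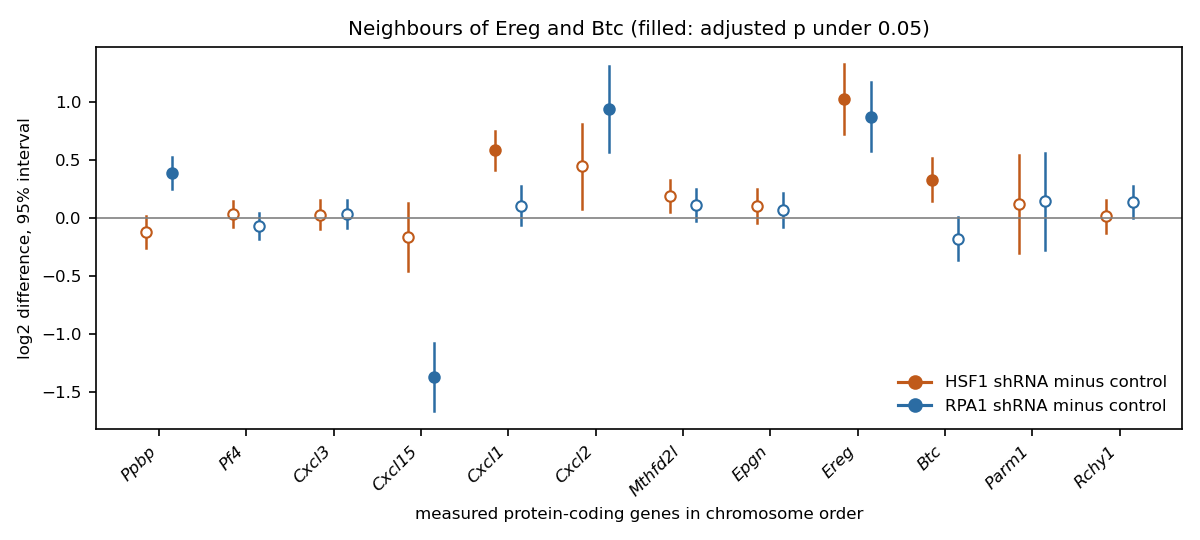
Log2 differences with 95% intervals for measured protein-coding genes in their order along chromosome 5, HSF1 shRNA minus control in orange and RPA1 shRNA minus control in blue; filled points passed an adjusted p under 0.05 and the spacing is not to scale. Ereg is filled in both comparisons, while its neighbour Epgn is filled in neither and Btc in HSF1 shRNA alone.

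The genes whose values lay nearest to Ereg over the 9 arrays, by Euclidean distance after subtracting each gene's control mean, were the chemokine gene Ccl5 (0.29), Lmcd1 (0.41) and Pstpip2 (0.41). The choice fixes that these genes differ as Ereg does, so their differences are a description with no test; for Ccl5 they were 0.99 under HSF1 shRNA and 0.85 under RPA1 shRNA. Nearest to Egfr were the ephrin receptor gene Ephb3 (0.12), Porcn (0.14), whose product lipidates Wnt proteins, and Pcca (0.16), a subunit of propionyl-CoA carboxylase. The differences of Ephb3, likewise fixed by the choice, were -0.31 under HSF1 shRNA and -0.48 under RPA1 shRNA.

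Marker genes of the cells moved beside these values, and their part in the family's values was not tested; the markers named were picked after their values were seen. The mean of 9 fibroblast markers lay between 11.64 and 11.74 under HSF1 shRNA and 11.23 and 11.34 under RPA1 shRNA, against 11.92 and 11.97 in the control; 4 and 7 of the 9 fell, led by Pdgfra. Thy1 and Vim lay the other way and did not pass. Thy1 stood at 0.19 ± 0.06 under HSF1 shRNA and 0.10 ± 0.06 under RPA1 shRNA, and Vim at 0.08 ± 0.04 and 0.10 ± 0.04. Over all genes 9.89% and 15.4% rose and 6.21% and 14.7% fell under HSF1 shRNA and RPA1 shRNA, and single calls in the lists that follow are to be read beside those shares. Of 8 epithelial markers 1 rose in each knockdown (Krt14; its HSF1 shRNA call, 0.28, was lost when any 1 array of the control or of HSF1 shRNA was left out), with list means of 7.73 to 7.78 and 7.67 to 7.75, against 7.57 to 7.62. Of 6 endothelial markers 1 rose in each, Pecam1, with list means of 6.86 to 6.90 and 6.79 to 6.93, against 6.75 to 6.80. Tek lay the other way and did not pass (-0.16 ± 0.06 under HSF1 shRNA and -0.10 ± 0.06 under RPA1 shRNA). The group means of Pecam1, 6.85 to 7.05, lay below the array medians of 7.72 to 7.81. Of 6 macrophage or other blood markers 2 and 3 rose (list means 7.04 to 7.06 and 7.30 to 7.40, against 6.77 to 6.86). Of 3 glial markers 1 rose in each (Gfap under HSF1 shRNA and Sox10 under RPA1 shRNA; list means 7.98 to 8.07 and 7.93 to 8.06, against 7.80 to 7.88). In these bulk samples fewer cells of a type and less RNA per cell cannot be told apart.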

How the data were processed

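The deposited values are log2 signals per probe set and array, used as the authors deposited them. They were made with RMA in Partek 6.5, per the submitters' processing notes. The log base is inferred from the values, which run from 1.14 to 15.0 with array medians of 7.72 to 7.81. For an array 200 ng of RNA was labelled, per the labels. With 3 arrays in each group precision is limited; replicates correlated at 0.992 to 0.995.

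Of 35557 rows, 21789 had 1 gene symbol in the platform annotation; the row with the highest mean stood for a gene. limma 3.58.1 in R 4.3.3 fitted 1 mean per group to all 9 arrays (6 residual and 3.51 prior degrees of freedom), with empirical Bayes moderation and two-sided, Benjamini-Hochberg adjusted p-values over 19938 genes. An exact test of 3 arrays against 3 cannot go below p = 0.1. Members and lists were chosen with earlier results of these data known. From each pathway list the text names at most the 3 called genes with the largest difference, all family genes, and the 3 genes nearest to the largest called ligand and receptor. Adam17, Rhbdf2, Errfi1, Dusp6, Egr1, Spry1, Spred1, the chromosome 5 neighbours and single markers were named outside this rule, after their values were seen. Alternatives covered scaling, filter, row choice, variance model, array weights, arrays used, replicate block and leaving out each array.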

Additional observations from a re-analysis of the deposited data

How the results depend on the processing

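Of 426 recomputed values of single family genes, over 18 alternatives in 3 comparisons, 391 kept their side of the threshold, 17 lost a call, 18 gained one and 0 reversed a call. The number of family genes called under HSF1 shRNA, 5 in the report, was 3 among genes above the median gene, a filter that removes Ereg and Btc, 3 with the unmoderated test, which loses Hbegf (adjusted p = 0.058) and Btc (adjusted p = 0.074), and 3 to 5 with 1 array left out. Under RPA1 shRNA it was 4 to 6 with 1 array left out, against 5. Between HSF1 shRNA and RPA1 shRNA it was 6 with array weights, against 2, and 2 to 6 with 1 array left out; RPA1 shRNA array 3, whose absence gave 6, had the lowest weight (0.21). The causes were not tested. Replicate numbers are shared by the groups, but the same-numbered arrays did not deviate together (correlations of -0.16 to 0.09), so they were not treated as pairs; with the replicate block the counts were 5, 5 and 3, the added call being Nrg1 between the knockdowns (-0.24, adjusted p = 0.039). Calls of all genes under HSF1 shRNA, 3210 in the report, numbered 3118 higher and 2195 lower with array weights. Signal over background was not measured.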

Other observations

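Cd68, a lysosomal membrane protein gene and macrophage marker, had the largest rise of the marker lists. It averaged 10.28 ± 0.40 under RPA1 shRNA and 8.71 ± 0.01 under HSF1 shRNA, against 8.23 ± 0.17 in the control (SD, n = 3 each). The RPA1 shRNA rise was 2.06 ± 0.17 (limma adjusted p = 2.82e-05), and the HSF1 shRNA difference of 0.48 ± 0.17 did not pass (limma adjusted p = 0.0832). That HSF1 shRNA difference passed in 5 of 18 alternatives, among them without RPA1 shRNA array 3 (limma adjusted p = 0.004). In the same list Lyz2, a lysozyme gene of macrophages, and Csf1r, the receptor of a macrophage growth factor, rose under RPA1 shRNA (0.52 ± 0.07 and 0.35 ± 0.07, limma adjusted p = 0.000331 and 0.00464). Both also rose under HSF1 shRNA (0.50 ± 0.07 and 0.27 ± 0.07, limma adjusted p = 0.00117 and 0.0319). Their group means were low, 6.14 to 6.66 for Lyz2 and 7.11 to 7.47 for Csf1r, below the array medians of 7.72 to 7.81. Cd14 stood at 0.17 ± 0.08 under RPA1 shRNA (limma adjusted p = 0.124). The pan-leukocyte gene Ptprc stood at 0.12 ± 0.06 under RPA1 shRNA (limma adjusted p = 0.159), and the macrophage gene Adgre1 at 0.09 ± 0.08 (limma adjusted p = 0.475). The epithelial keratin gene Krt14 rose by 0.61 ± 0.07 under RPA1 shRNA (limma adjusted p = 0.00019). The other 7 epithelial markers did not pass and lay between -0.10 (Epcam) and 0.19 (Krt5).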
